A study of Mus musculus with 25 samples.

Results

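Peritumoral liver of carcinogen-treated mice was compared with liver of untreated mice, both on the Western diet, to ask how liver next to tumors differs when the diet is held constant. The 12 libraries were chosen by their labels, 8 of DEN-PT-WD and 4 of nonDEN-L-WD, from 25 in the series. All mice were male C57BL/6J, an inbred strain. DEN-PT-WD mice had received diethylnitrosamine (DEN), a carcinogen that hepatocytes activate into a DNA-damaging form, at 25 mg/kg intraperitoneally at 2 weeks of age, and were fed the Western diet (WD) from weaning. The sampled piece was liver beside a tumor. The nonDEN-L-WD mice are labelled untreated, with no injection named, had the same diet from weaning, and gave liver that was not next to a tumor. Beside these stand tumors of DEN-treated mice on WD (DEN-T-WD, n = 6) and, on the control diet (CD), livers of DEN-treated (DEN-L-CD, n = 4) and untreated mice (nonDEN-L-CD, n = 3). No group is DEN-treated liver on WD without tumors, so the effect of DEN and that of a nearby tumor cannot be told apart here. Each frozen piece was pulverised whole before RNA extraction, so that fewer cells of a type and less RNA per cell cannot be told apart, nor tumor cells included in a peritumoral piece from surrounding liver. The labels do not say that the libraries of a group came from separate mice, and p-values therefore measure the spread between these samples.

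A liver after a single early dose of DEN carries mutated hepatocytes that grow into foci and then tumors over months, and such cells often express genes of the fetal liver that adult hepatocytes keep silent. Liver around tumors also holds macrophages that clear dying, fat-laden hepatocytes, activated stellate cells that deposit collagen, and lymphocytes. In mice, many liver genes are set at male or female levels by the pulses of growth hormone, and the transcription factors STAT5b, BCL6 and CUX2 carry this pattern.

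The libraries held between 23225238 and 38074411 expected counts in DEN-PT-WD and between 28520935 and 31120744 in nonDEN-L-WD, and these totals overlapped (two-sided exact permutation test, p = 0.432, n = 8 and 4). The mean read length implied by the files ran from 73.74 to 74.05 bases in the peritumoral libraries and from 74.09 to 74.21 in the untreated ones, without overlap (two-sided exact permutation test, p = 0.00404), and this technical difference cannot be told apart from the groups. *Alb*, the albumin gene that marks hepatocytes, reached from 783640 to 2256800 normalized counts in all 12 libraries. The nonDEN-L-WD replicate 1 held transcripts of the kidney. All 30 kidney markers of a list chosen after values were seen were highest in it among the 12, with a summed level of 1807 TPM, a share of all transcripts corrected for their length, against 8.23 to 25.6 TPM in the other 11. *Kap*, a kidney androgen-regulated gene, had 15039 normalized counts there and from 0 to 1.07 in the others. Pancreas markers summed to 2262, 65.8, 349.9 and 3186 TPM in the untreated libraries and to between 24.6 and 12971 TPM in the peritumoral ones, and of the 36 markers tested none was called by the edgeR test or DESeq2, with 0 at an unadjusted p under 0.05, while 1 was called higher without nonDEN-L-WD replicate 1. Results are therefore also given without nonDEN-L-WD replicate 1 wherever it ends or makes a call named here or moves a called fold by over 1.5 times.

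**Figure D1:**
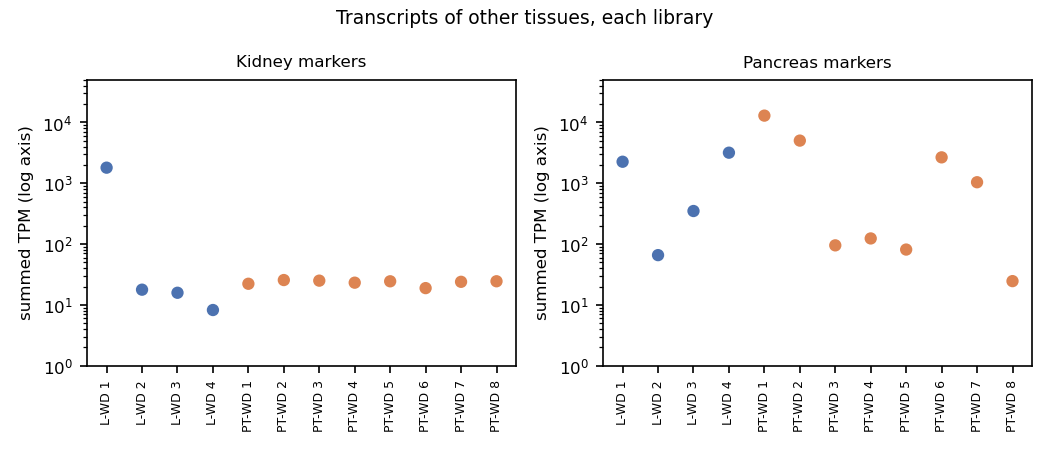
Summed TPM of 30 kidney markers (left) and of the pancreas marker list (right) in each of the 12 libraries, on log axes, with nonDEN-L-WD replicates 1 to 4 labelled L-WD and DEN-PT-WD replicates 1 to 8 labelled PT-WD. Kidney transcripts stand out in nonDEN-L-WD replicate 1 at 1807 TPM, while pancreas transcripts vary widely in both groups.

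Of 15625 genes tested, 4630 were at an unadjusted p under 0.05 and 432 (2.76%) were called, that is, had a Benjamini-Hochberg adjusted p of at most 0.05 by edgeR's quasi-likelihood test and at least a 2-fold difference. Higher in peritumoral liver were 368 genes (2.36%) and lower were 64 (0.41%), while the median log2 fold change over all tested genes was 0.00. By the adjusted p alone 1933 genes (12.4%) differed, of which 1172 (7.5%) were higher and 761 (4.87%) lower. These shares, and the 4630 of 15625 at an unadjusted p under 0.05, are the background for such counts in the lists below. For 1051 genes (6.73%) all 8 peritumoral values lay above or all below the 4 untreated ones. Normalized counts below are expected counts scaled to the effective library size, fold changes are given on the log2 scale as peritumoral over untreated with their standard errors, and values of the 8 peritumoral libraries are given as lowest, median and highest. Leaving out 1 library lowered the counts most for a pair of untreated ones. With nonDEN-L-WD replicate 1 left out, 259 genes were called higher, 211 of them among the 368, and without nonDEN-L-WD replicate 4, 159 were called higher and 42 lower. Without the libraries with over 1000 TPM of pancreas markers, an alternative chosen after seeing the data that left 4 peritumoral and 2 untreated libraries, 162 were called higher and 9 lower. That fit called 10 oncofetal, 3 female-biased, 5 macrophage, 3 cytokine, 2 bile duct, 2 p53, 1 protease and 1 chemokine list members higher, no cell cycle or T and NK cell marker, and 1 male-biased gene lower.

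**Figure D2:**
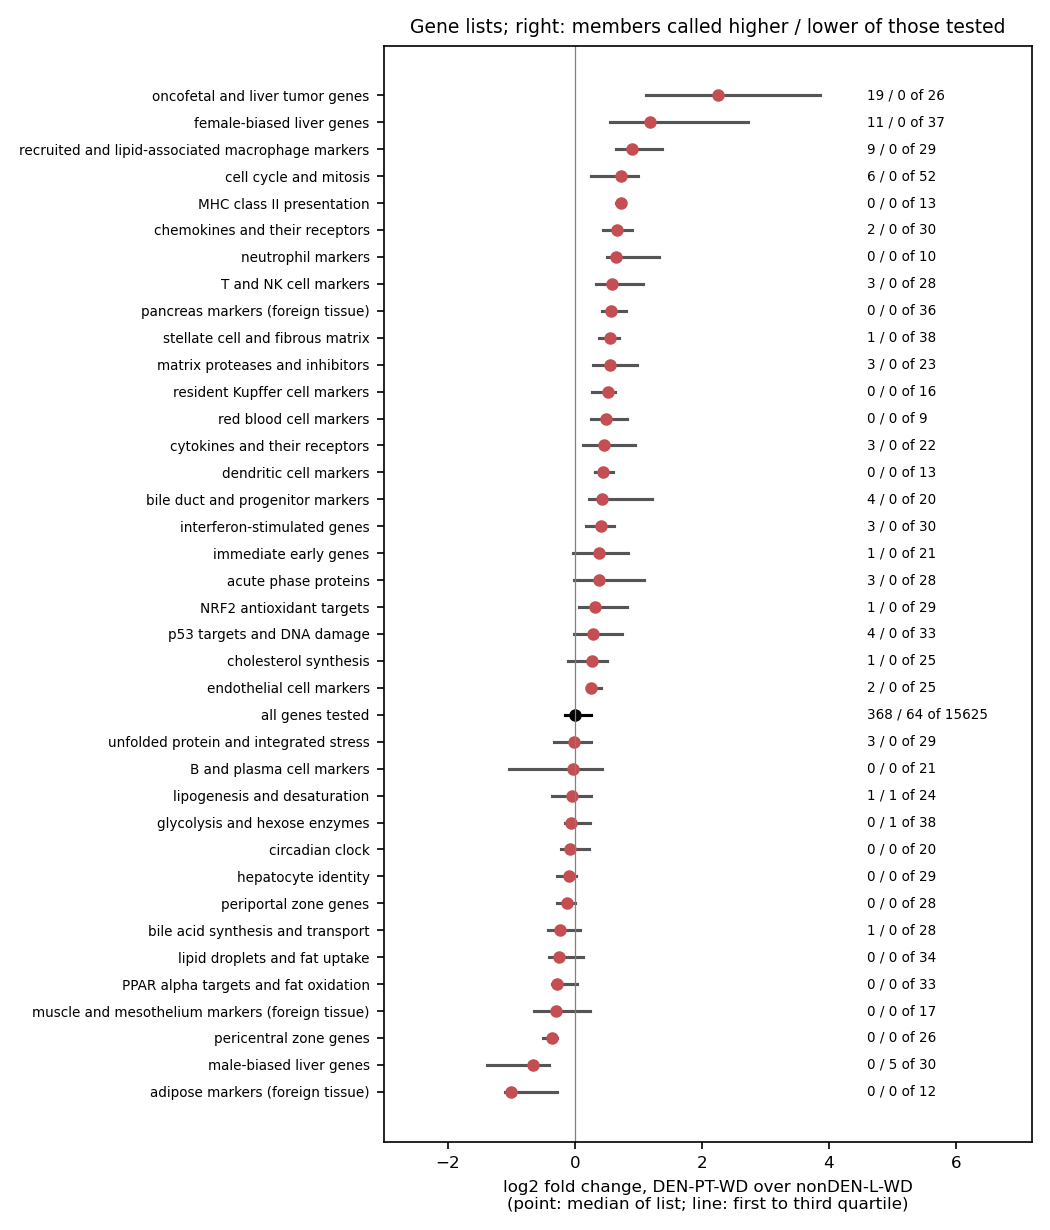
Median log2 fold change (point) and interquartile range (line) of each gene list, DEN-PT-WD over nonDEN-L-WD, with the number of members called higher and lower of those tested at the right. The oncofetal and female-biased lists lie furthest to the right at 2.26 and 1.18, the male-biased list lies at -0.65, and all tested genes together lie at 0.00. The lists were chosen with earlier results of these data known.

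Most of the listed genes of the fetal liver and of liver tumors were higher in peritumoral liver. This list and the other lists below were chosen with earlier results of these data known. Their counts therefore describe the listed genes and are no independent test. Of 27 listed genes 26 were tested, and 19 were higher and none lower in peritumoral liver, against 2.36% of all genes called higher. Their median log2 fold change was 2.26, or 2.11 with genes at the detection floor set to their bound, and 18 of the 26 did not overlap between the groups, beside 3.81% of all genes that lay higher without overlap. *Afp*, which encodes the alpha-fetoprotein of fetal serum, had 21.5, 16.1, 16.5 and 18.1 normalized counts in the 4 untreated libraries and 92.6, 510.2 and 1706 in the peritumoral ones (log2 fold change 5.05 ± 0.76, adjusted p = 0.000721). The untreated values lay close together and far below each peritumoral one, which themselves spread widely.

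The promoter of *Afp* is shown because this gene is a standard marker of the fetal liver programme. The window covers the 250 bases before the RefSeq start of *Afp* on chr5:90490464-90490713 (GRCm38.p6, plus strand), written from 5′ to 3′, with capitals marking a match to an HNF1 motif.
Afp: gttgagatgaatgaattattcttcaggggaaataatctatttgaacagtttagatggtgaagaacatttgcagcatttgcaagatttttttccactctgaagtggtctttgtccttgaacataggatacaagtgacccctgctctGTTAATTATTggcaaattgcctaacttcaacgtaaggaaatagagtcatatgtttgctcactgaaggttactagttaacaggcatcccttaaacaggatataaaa
The match begins 105 bases before the start. These letters, searched on both strands, stood in 0.371% of 32851 RefSeq promoter windows of this length, and among 251 windows of genes called higher they stood in 3. Of the 432 called genes 291 had a window in the table.

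*Gpc3*, a heparan sulfate proteoglycan used as a marker of hepatocellular carcinoma, had 84.9, 51.1, 58.7 and 32 normalized counts in untreated liver and 151, 677 and 2986 in peritumoral liver (log2 fold change 4.23 ± 0.90, adjusted p = 0.00575). *H19*, an imprinted long noncoding RNA of fetal liver, had 50.7, 55.8, 69.1 and 19.2 against 301, 707 and 1712 (log2 fold change 4.19 ± 0.65, adjusted p = 0.000822). Neither gene overlapped between the groups. *Akr1c18*, an aldo-keto reductase that inactivates progesterone, had the largest increase of the genes with at least 100 normalized counts and no overlap, from 1.95, 0, 5.15 and 2.13 in the untreated libraries to 118, 815 and 2401 in the peritumoral ones (log2 fold change 8.69 ± 1.37, adjusted p = 0.000844). *Bex1* was at the floor in untreated liver, with at most 3 counts in each library, and was at least 11-fold higher in peritumoral liver, where it had 5.26, 19.6 and 78.6 normalized counts. *Igf2bp3*, an RNA-binding protein of fetal tissues, had 0 in all 4 untreated libraries and 1.05, 3.79 and 7.68 in the peritumoral ones, which is at least 1.31-fold. The calls of *Afp*, *Gpc3*, *H19*, *Akr1c18*, *Bex1* and *Igf2bp3* were kept in all 12 fits that each left out 1 of the 12 libraries, and those of *Afp*, *H19* and *Akr1c18* also without the pancreas-rich libraries. The log2 fold change of *Akr1c18* was 9.40 without nonDEN-L-WD replicate 3, and that of *Bex1* moved from 5.24 to 6.20 without nonDEN-L-WD replicate 4.

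The other 13 called members were *Cdkn2b*, *Tff3*, *Ly6d*, *Scd2*, *Lcn2*, *Cdkn2a*, *Akr1b7*, *Meg3*, *Golm1*, *Capg*, *Plagl1*, *Sox4* and *Mest*, with log2 fold changes from 1.01 for *Mest* to 4.04 for *Cdkn2b*. They include a secreted mucosal peptide (*Tff3*), a lipocalin that binds iron carriers (*Lcn2*) and a pair of cyclin-dependent kinase inhibitors that share a locus. *Cdkn2b* had 0.975, 3.78, 4.12 and 3.2 normalized counts in untreated and 10.1, 37.7 and 129.6 in peritumoral liver, and *Cdkn2a* had 4.88, 8.51, 3.09 and 2.13 and 8.11, 15.4 and 65.3. Only *Cdkn2b* of this pair did not overlap. *Igf2*, the fetal growth factor of the same imprinted domain as *H19*, had 14.6, 19.9, 23.7 and 20.2 and 23.2, 38.5 and 77.6 and missed the threshold by edgeR (log2 fold change 1.19 ± 0.40, adjusted p = 0.0516). DESeq2's Wald test called it higher (adjusted p = 0.0272). Leaving out nonDEN-L-WD replicate 1 left 13 called members, with *Cdkn2b*, *Lcn2*, *Cdkn2a*, *Meg3*, *Capg* and *Mest* lost. *Tff3* moved from 3.35 to 3.94 without replicate 4 of that group. Without replicate 4 of that group 12 were called, with *Sox4* lost as well. The call of *Lcn2* was also lost without any one of nonDEN-L-WD replicates 2 and 3 and DEN-PT-WD replicates 3, 4, 5 and 8, that of *Cdkn2a* without nonDEN-L-WD replicate 3, that of *Sox4* without DEN-PT-WD replicate 3, and that of *Mest* without DEN-PT-WD replicates 3, 4, 5 or 8.

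Values of the tumors are set beside the peritumoral ones for 4 of these genes. *Afp* averaged 1878 ± 541 normalized counts (SD, n = 6) in DEN-T-WD and 600.0 ± 514 (SD, n = 8) in DEN-PT-WD, a tumor over peritumoral log2 difference of 1.65 ± 0.45 (adjusted p = 0.0057). For *Gpc3* the means were 4964 ± 2635 and 1067 ± 1061, with a difference of 2.22 ± 0.61 (adjusted p = 0.00617). *Igf2bp3* differed by 2.62 ± 0.45 (adjusted p = 0.000182). *Plagl1*, an imprinted zinc finger gene, averaged 99.6 ± 22.3 in tumors and 89.8 ± 19.2 in peritumoral liver, and this difference of 0.14 ± 0.14 (adjusted p = 0.468) did not pass. The tumor comparison shares the 8 peritumoral libraries with the comparison described here.

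**Figure D3:**
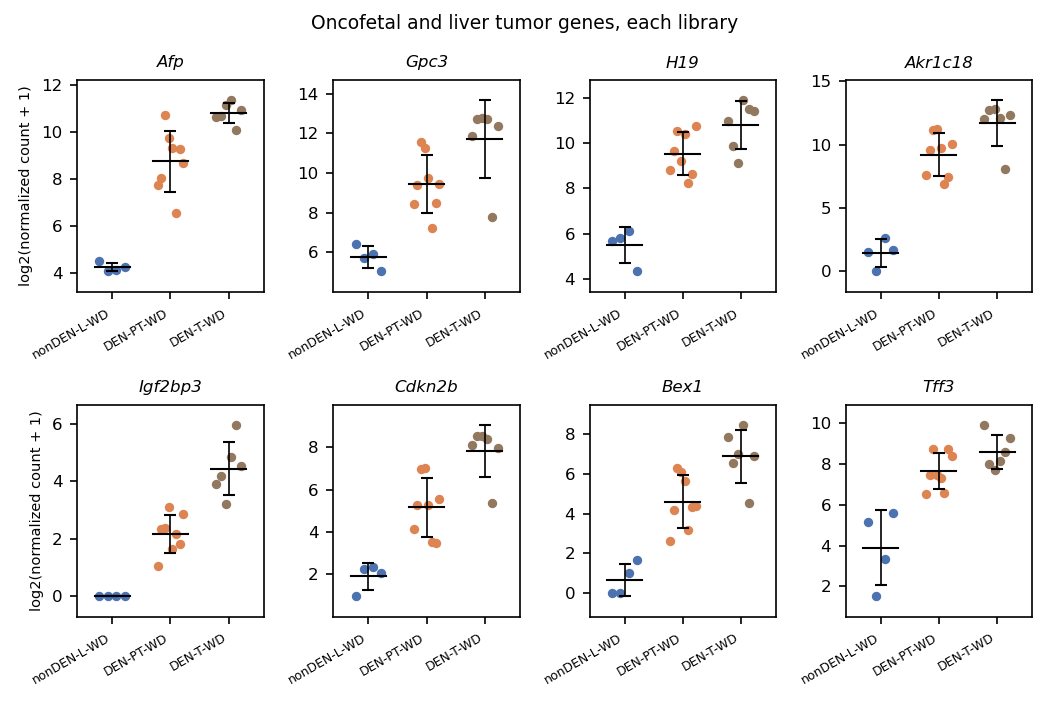
log2(normalized count + 1) of 8 oncofetal and liver tumor genes in each library of nonDEN-L-WD (4), DEN-PT-WD (8) and DEN-T-WD (6), with horizontal bars for the mean and error bars for 1 SD. Every peritumoral library lies above the 4 untreated ones for each of the 8 genes, and the peritumoral points spread over several log2 units.

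Among the largest increases outside that list were *Cdh17*, *Kif5c*, *Igdcc4*, *Klrb1b* and *5330417C22Rik*. *Cdh17*, a cadherin of the gut epithelium, was at the floor in untreated liver and had 33.8, 93.1 and 275 normalized counts in peritumoral liver, at least 36.6-fold higher. *Kif5c*, a kinesin motor known from neurons, had 9.75, 4.73, 6.18 and 3.2 against 27.8, 208 and 640.4 (log2 fold change 5.46 ± 1.10, adjusted p = 0.00413). *Igdcc4*, an immunoglobulin-superfamily membrane protein, had 6.83, 10.4, 6.18 and 3.2 against 38.2, 135 and 397 (log2 fold change 4.54 ± 0.91, adjusted p = 0.004). These genes did not overlap between the groups, and the fitted log2 fold change of *Cdh17*, 6.98, was 7.89 without nonDEN-L-WD replicate 2. *Klrb1b*, which encodes a natural killer receptor, had 9.75, 4.73, 0 and 7.46 against 34.7, 241 and 675 (log2 fold change 5.62 ± 1.17, adjusted p = 0.0051), but 27.2% of its 50-base words occur in other genes, so that its reads are not fully separated. *5330417C22Rik* had 18.5, 13.2, 22.7 and 18.1 against 96.1, 365 and 1135 (log2 fold change 4.69 ± 0.68, adjusted p = 0.000657). Of smaller size but with small errors, *Serpinb6a*, a serine protease inhibitor, had 352, 415, 432 and 373 against 577, 818 and 1225 (log2 fold change 1.16 ± 0.15, adjusted p = 0.000187), and *Fam19a2*, a secreted chemokine-like protein, had 6.83, 10.4, 9.28 and 3.2 against 28.9, 58.2 and 92.2 (log2 fold change 2.97 ± 0.39, adjusted p = 0.000309). The calls of these 7 genes were kept whichever of the 12 libraries was left out.

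Part of the female-biased liver genes were higher in these male peritumoral livers. Of 38 listed genes 37 were tested, and 11 were higher, beside 2.36% of all genes, and none lower, with a median log2 fold change of 1.18. *Cyp2a4*, a steroid hydroxylase, had 420.4, 33.1, 8.24 and 0 normalized counts in untreated and 2126, 10835 and 24711 in peritumoral liver (log2 fold change 6.74 ± 1.12, adjusted p = 0.00134). Of the untreated libraries the highest was replicate 1, the one with kidney transcripts, and without it the log2 fold change was 9.76 (adjusted p = 0.00023). *Cyp2b9* had 7.8, 61.5, 30.9 and 7.46 against 116, 1702 and 2397 (log2 fold change 5.72 ± 0.93, adjusted p = 0.00105), and *Cyp2b13*, at the floor in untreated liver, had 4.22, 156 and 410.1, at least 58.4-fold higher. Both encode female-predominant cytochromes P450 and both were lowest in DEN-PT-WD replicate 7, at 115.6 and 4.22. Without nonDEN-L-WD replicate 2 the log2 fold change of *Cyp2b9* was 6.54, and without replicate 3 that of *Cyp2b13* moved from 6.99 to 7.81. *Sult2a2*, a sulfotransferase of bile acids and steroids, was at least 10.1-fold higher, with 2.32, 24.9 and 78.6 in peritumoral liver and at most 3 counts in each untreated library. The share of 50-base words held by other genes was 38% for *Cyp2a4*, 27.3% for *Cyp2b13*, 11.2% for *Cyp2b9* and 62.1% for *Sult2a2*, so the split of reads within these families is uncertain.

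*Cyp2c69* and *Cyp2c40*, neighbouring P450 genes of fatty acid and steroid oxidation, separated the peritumoral livers. *Cyp2c69* had 21, 1802, 1548, 111, 20.4, 37.1, 114 and 1391 normalized counts in DEN-PT-WD replicates 1 to 8, and 11.7, 26.5, 13.4 and 20.2 in untreated liver (log2 fold change 5.12 ± 1.38, adjusted p = 0.02). *Cyp2c40* had 99.9, 2419, 2800.5, 492, 132, 83.4, 342 and 2088 in the same order and 63.4, 78.5, 37.1 and 83.1 in untreated liver (log2 fold change 4.01 ± 0.98, adjusted p = 0.0116). Replicates 2, 3 and 8 were far above the other 5 for both genes, and *Cyp2c69* overlapped with the untreated range while *Cyp2c40* did not. Of their 50-base words 54.3% and 60.3% occur in other genes, and each gene's own share of reads is uncertain. Their promoters are shown because both genes moved together in the same libraries. The windows are the 250 bases before the RefSeq starts, on chr19:39812815-39813064 for *Cyp2c40* and chr19:39886770-39887019 for *Cyp2c69* (GRCm38.p6, minus strand), with capitals for CAAAGTCCA, the letters of a direct-repeat (DR1) motif of nuclear receptors.
Cyp2c40: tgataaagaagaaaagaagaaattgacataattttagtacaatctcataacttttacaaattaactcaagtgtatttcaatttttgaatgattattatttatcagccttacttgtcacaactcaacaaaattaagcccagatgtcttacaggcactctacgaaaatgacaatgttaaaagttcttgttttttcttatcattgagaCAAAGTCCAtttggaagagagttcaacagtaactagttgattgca
Cyp2c69: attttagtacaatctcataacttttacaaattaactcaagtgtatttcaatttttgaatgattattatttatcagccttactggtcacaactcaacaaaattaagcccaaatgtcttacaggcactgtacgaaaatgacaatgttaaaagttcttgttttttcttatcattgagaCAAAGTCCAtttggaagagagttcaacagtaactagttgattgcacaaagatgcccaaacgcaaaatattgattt
Over 220 aligned bases, with an offset of 30, the windows were 98.6% identical. The letters begin 45 bases before the start of *Cyp2c40* and 75 before that of *Cyp2c69*, and were found on either strand in 0.384% of all 32851 windows.

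Also called among the female-biased genes were *A1bg*, *Slc22a26*, *Prom1* and *Atp6v0d2*, with log2 fold changes from 1.41 for *Atp6v0d2*, a subunit of the vacuolar proton pump, to 3.88 for *A1bg*. Without nonDEN-L-WD replicate 1 the list had 8 members called, without replicate 3 it had 7 and without replicate 4 it had 6. *Cyp2c69* and *A1bg* lost their calls without any one of these 3, *Prom1* without any one of the 4 untreated libraries, and *Slc22a26* without nonDEN-L-WD replicate 4. *A1bg* was at 5.09 without nonDEN-L-WD replicate 2.

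Part of the male-biased liver genes were lower. Of 30 tested, 5 were lower and none higher, beside 0.41% of all genes called lower, and the median log2 fold change was -0.65. *Elovl3*, an elongase of very long-chain fatty acids, had 2481, 1913, 3329.9 and 3069 normalized counts in untreated and 618, 1039.7 and 1371 in peritumoral liver (log2 fold change -1.40 ± 0.22, adjusted p = 0.000822), with no overlap. *Mup7*, *Mup12* and *Mup1* encode major urinary proteins, the lipocalins that male mice secrete to carry pheromones. *Mup7* had 357090, 150880, 176200 and 724200 against 6248, 45770 and 145940 (log2 fold change -2.52 ± 0.69, adjusted p = 0.0211). *Mup12* had 12954, 9722, 9305 and 28349 against 668, 2841 and 7406 (log2 fold change -2.25 ± 0.59, adjusted p = 0.0166), and *Mup1* had 45313, 35978, 38091 and 93614 against 4173, 11713 and 25368 (log2 fold change -2.03 ± 0.50, adjusted p = 0.0119). Each of the 3 was highest in nonDEN-L-WD replicate 4 and did not overlap between the groups, and each lost its call without that replicate, where *Mup7* was at -1.89. *Ugt2b38*, a glucuronosyltransferase with 37.4% of its 50-base words in other genes, had 1295, 589, 206 and 761 against 78.7, 155 and 515 (log2 fold change -1.59 ± 0.46, adjusted p = 0.0274), and lost its call without nonDEN-L-WD replicate 1 or 4. In all, 1 member of the list was called without replicate 4 and 4 without replicate 1. Without the pancreas-rich libraries *Elovl3* alone kept its call, *Mup7* was at -0.93 (adjusted p = 0.672) and *Ugt2b38* at -0.15 (adjusted p = 0.918).

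The major urinary protein genes as a family were chosen after their values were seen. The tested genes and pseudogenes number 31 on chr4:59964294-62150863 (GRCm38), of which 14 were lower, beside 0.41% of all genes, none was higher and 29 had a fold change below 1, with a median of -1.25. *Mup18* had 2799, 1515, 1586 and 6865 against 357, 702 and 1104 (log2 fold change -2.18 ± 0.34, adjusted p = 0.000822), *Mup2* had 24820, 18543, 17427 and 46322 against 1388, 5669 and 12074 (log2 fold change -2.12 ± 0.46, adjusted p = 0.00637), and *Mup14* had 164090, 110710, 94250 and 324780 against 10052, 37459 and 92285 (log2 fold change -2.03 ± 0.50, adjusted p = 0.0127). Untreated values exceeded every peritumoral value for these 3 genes. *Mup22* had 636000, 595190, 647110 and 912820 against 176270, 320720 and 465800 (log2 fold change -1.09 ± 0.25, adjusted p = 0.0081), while *Mup3* overlapped, with 148620, 149290, 147160 and 234390 and 64868, 108550 and 157820 (log2 fold change -0.61 ± 0.29, adjusted p = 0.161). *Gm13773*, a transcript that shares 11.8% of its 50-base words with the family, had 128, 81.4, 78.3 and 209 against 19.5, 24.7 and 41.3 (log2 fold change -2.16 ± 0.27, adjusted p = 0.000187). The *Mup* genes named by the largest decreases share between 61.6% and 89.6% of their 50-base words with other genes and *Mup22* shares 100% of them, so the division of reads among members is uncertain. *Mup18* was at -1.49 without nonDEN-L-WD replicate 4 and kept its call, but lost it without the pancreas-rich libraries, at -1.01 (adjusted p = 0.197). Of the *Mup* genes named here none was called in that fit. The call of *Mup14* was lost without nonDEN-L-WD replicate 4, and that of *Mup22* without it or DEN-PT-WD replicate 5.

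**Figure D4:**
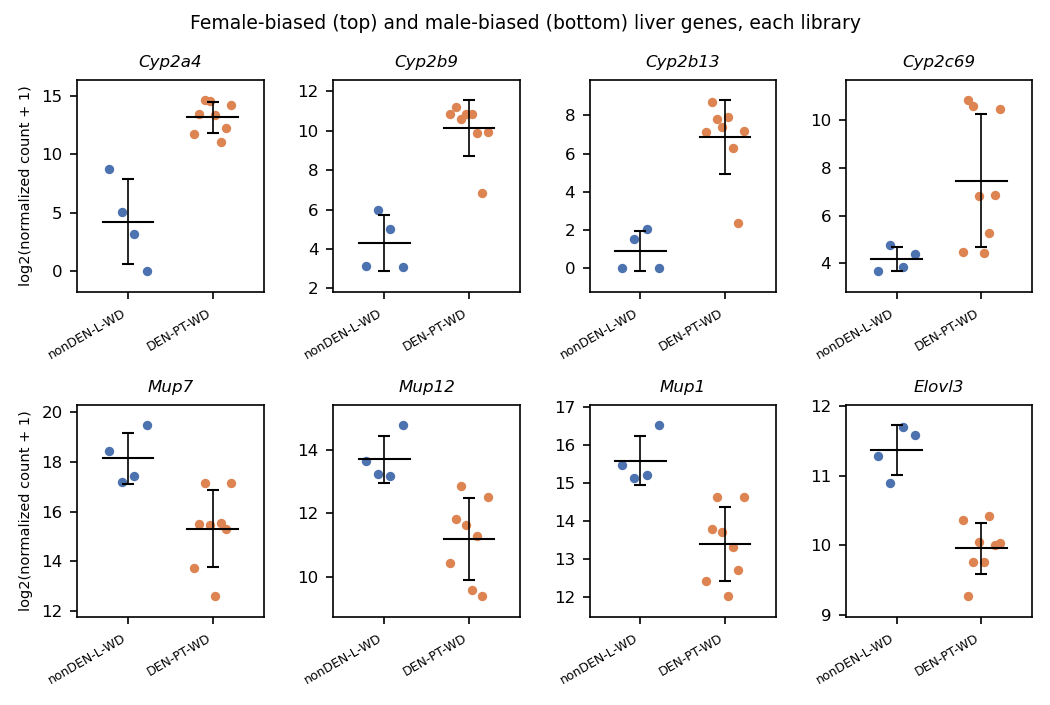
log2(normalized count + 1) of 4 female-biased genes (top) and 4 male-biased genes (bottom) in each library of nonDEN-L-WD (4) and DEN-PT-WD (8), with horizontal bars for the mean and error bars for 1 SD. All genes but *Cyp2c69* separate the groups completely, and 3 peritumoral libraries carry the high *Cyp2c69* values.

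Part of the markers of recruited and lipid-associated macrophages were higher in peritumoral liver. Of 29 tested, 9 were higher, beside 2.36% of all genes, and none lower, 15 were higher by adjusted p alone, beside 7.5%, and the median log2 fold change was 0.91. Their summed level was 520.8 to 834.1 TPM in untreated and 822.3 to 1560 TPM in peritumoral liver. *Gpnmb*, a glycoprotein of fat-laden macrophages, had 33.2, 366, 114 and 17 normalized counts against 144, 471 and 1246 (log2 fold change 2.05 ± 0.57, adjusted p = 0.0229), and nonDEN-L-WD replicate 2 lay within the peritumoral range. *Clec7a*, the beta-glucan receptor dectin-1, had 239.9, 473, 426 and 212 against 479, 1034 and 1533 (log2 fold change 1.54 ± 0.29, adjusted p = 0.00263). *Spp1*, the secreted matrix protein osteopontin that bile duct cells also make, had 1664, 1192, 1135 and 1146 against 1501, 3625 and 7666 (log2 fold change 1.46 ± 0.33, adjusted p = 0.00777), and *Cd63*, a tetraspanin of lysosomes, had 468, 220.4, 143 and 153 against 277, 648 and 981 (log2 fold change 1.42 ± 0.34, adjusted p = 0.0106). Of these 4 genes only *Clec7a* did not overlap. *Trem2*, the lipid receptor of these cells, *Itgax* and *Lgals3* were also called, with log2 fold changes of 1.38, 1.35 and 1.07. Without nonDEN-L-WD replicate 1 the list had 7 called members, losing *Gpnmb*, *Trem2* and *Lgals3* and gaining 1, and without replicate 4 it had 5, losing *Cd63* as well. *Gpnmb* was at 3.33 without nonDEN-L-WD replicate 2, and was also lost without replicate 3 and *Lgals3* without DEN-PT-WD replicate 8.

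Matrix proteases and their inhibitors had 3 members higher of 23 tested, beside 2.36% of all genes, and none lower, with a median of 0.55. *Mmp12*, the macrophage elastase, had 93.6, 341, 268 and 50.1 normalized counts against 375, 778 and 1106 (log2 fold change 2.02 ± 0.42, adjusted p = 0.00467), and *Mmp13*, a collagenase, had 27.3, 37.8, 35 and 10.7 against 43, 123 and 194 (log2 fold change 2.02 ± 0.43, adjusted p = 0.00575). *Timp1*, an inhibitor of metalloproteinases, had 5.85, 13.2, 9.28 and 8.52 against 13.9, 27.8 and 35.5 (log2 fold change 1.44 ± 0.37, adjusted p = 0.0154). None of these overlapped, and the call of *Timp1* alone of the 3 was lost without nonDEN-L-WD replicate 1 or 4. Cytokines and their receptors had 3 of 22 higher, against the same background, and none lower, with a median of 0.47. *Il1rn*, the interleukin-1 receptor antagonist, had 108, 127, 188 and 79.9 against 198, 539 and 834 (log2 fold change 1.93 ± 0.40, adjusted p = 0.00506), with no overlap. *Tgfb2*, a ligand of the TGF-beta family, had 25.4, 29.3, 25.8 and 25.6 against 25.6, 57.8 and 83.5 (log2 fold change 1.10 ± 0.27, adjusted p = 0.0122), and *Lif*, a cytokine of the interleukin-6 family, had 3.9, 5.68, 5.15 and 0 against 4.22, 14.2 and 51.4 (log2 fold change 2.45 ± 0.71, adjusted p = 0.0283). Both overlapped with the untreated range. The call of *Lif* was lost without any one of nonDEN-L-WD replicates 1, 3 and 4 and DEN-PT-WD replicates 3 and 4, and without DEN-PT-WD replicate 6 the list had 6 called members.

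The promoters of *Mmp13* and *Il1rn* are shown because a protease and a cytokine antagonist that both rose hold, as found after their values were seen, the same letters, TGACTCA (on the other strand TGAGTCA), an AP-1 motif printed in capitals. The windows are chr9:7272264-7272513 for *Mmp13* and chr2:24336610-24336859 for *Il1rn*, both on the plus strand of GRCm38.p6 and from RefSeq.
Mmp13: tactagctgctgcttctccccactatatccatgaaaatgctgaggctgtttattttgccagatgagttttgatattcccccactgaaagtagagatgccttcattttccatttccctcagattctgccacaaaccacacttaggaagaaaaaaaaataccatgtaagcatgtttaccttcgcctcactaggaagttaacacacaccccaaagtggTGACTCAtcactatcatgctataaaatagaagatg
Il1rn: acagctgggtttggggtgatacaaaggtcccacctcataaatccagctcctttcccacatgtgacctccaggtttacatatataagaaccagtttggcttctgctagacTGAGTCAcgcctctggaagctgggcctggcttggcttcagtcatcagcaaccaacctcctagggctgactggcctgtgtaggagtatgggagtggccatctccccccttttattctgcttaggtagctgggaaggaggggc
The match begins 35 bases before the start of *Mmp13* and 141 before that of *Il1rn*. The letters stood in 4.46% of all windows and in 21 of the 251 windows of genes called higher (8.37%).

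**Figure D5:**
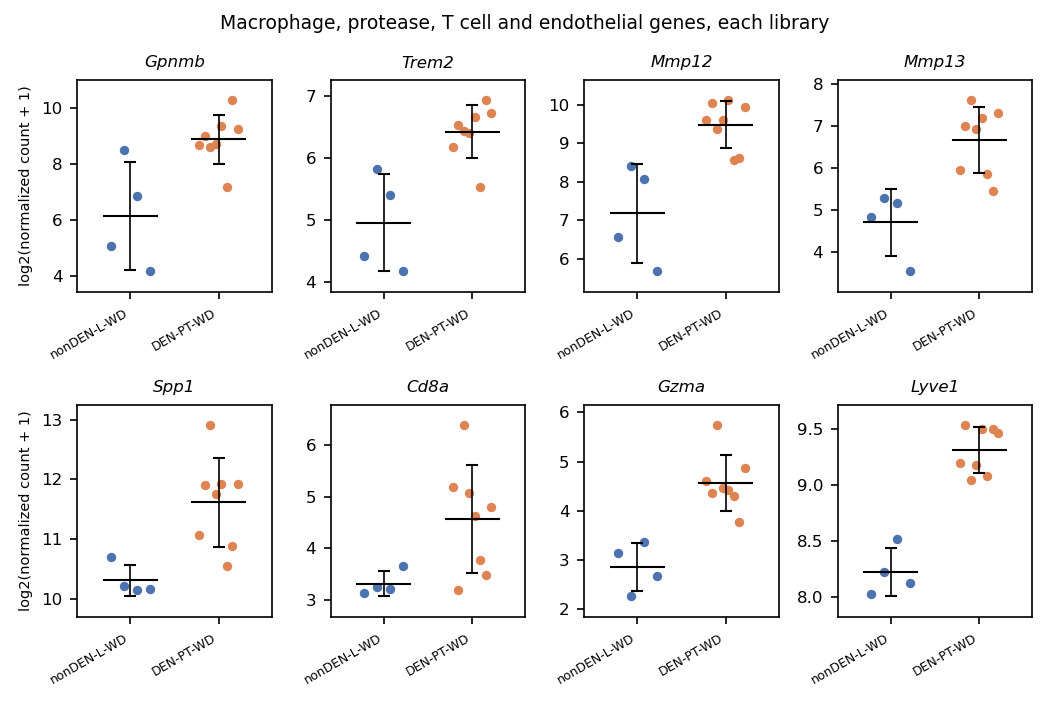
log2(normalized count + 1) of macrophage, protease, T cell and endothelial genes in each library of nonDEN-L-WD (4) and DEN-PT-WD (8), with horizontal bars for the mean and error bars for 1 SD. *Mmp12*, *Mmp13*, *Gzma* and *Lyve1* do not overlap between the groups, while *Gpnmb*, *Trem2*, *Spp1* and *Cd8a* do.

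Few lymphocyte markers were called. Of 28 T and NK cell markers 3 were higher, beside 2.36% of all genes, and none lower, with a median of 0.59. *Gzma*, a granzyme of cytotoxic cells, had 7.8, 3.78, 9.28 and 5.33 normalized counts against 12.7, 20.8 and 52.4 (log2 fold change 1.89 ± 0.54, adjusted p = 0.0276), without overlap. *Cd8a* and *Cd8b1*, the chains of the CD8 co-receptor, had 7.8, 8.51, 8.24 and 11.7 and 4.88, 3.78, 6.18 and 6.39 in untreated and 8.2, 25.2 and 82.8 and 5.26, 12.4 and 28.3 in peritumoral liver, with adjusted p-values of 0.0372 and 0.0372. All 3 calls were lost without nonDEN-L-WD replicate 1, without its replicate 2, without its replicate 4 or without DEN-PT-WD replicate 3, and the CD8 chains were also lost without nonDEN-L-WD replicate 3 or DEN-PT-WD replicate 4 or 8 and *Cd8b1* without DEN-PT-WD replicate 2. Without nonDEN-L-WD replicate 1, its replicate 4 or DEN-PT-WD replicate 3 the list had 0 called members, without nonDEN-L-WD replicate 3 or DEN-PT-WD replicate 4 or 8 it had 1, *Gzma*, and without nonDEN-L-WD replicate 2 it had 1 that was none of these. By the edgeR test no B and plasma cell marker of 21, neutrophil marker of 10 or dendritic cell marker of 13 was called. At an unadjusted p under 0.05 were 2, 3 and 4 of them, beside 4630 of all 15625 genes. DESeq2's Wald test called 1 B and plasma cell marker lower, as did the fit of the 12 libraries alone and that without nonDEN-L-WD replicate 2. It called 1 neutrophil marker higher, as did the fits without DEN-PT-WD replicate 1, 2 or 6, and 1 dendritic cell marker was higher without nonDEN-L-WD replicate 2. *Irf8*, a transcription factor of dendritic cells and macrophages, had 169.7, 210.0, 177 and 142 against 225, 298 and 413 without overlap (log2 fold change 0.80 ± 0.17, adjusted p = 0.00469), below a 2-fold difference.

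Chemokines and their receptors had 2 of 30 higher, *Ccr1* and *Cx3cr1*, beside 2.36% of all genes, and none lower, with a median of 0.67. By adjusted p alone 7 were higher, beside 7.5% of all genes, and 15 were at an unadjusted p under 0.05, beside 4630 of 15625. *Ccr1*, a receptor of monocytes and neutrophils, had 8.78, 6.62, 16.5 and 8.52 against 16.2, 28.6 and 40.8 (log2 fold change 1.51 ± 0.47, adjusted p = 0.0377), and *Cx3cr1*, the fractalkine receptor of monocytes, had 30.2, 77.6, 69.1 and 12.8 against 44, 109 and 174 (log2 fold change 1.21 ± 0.38, adjusted p = 0.0415). Both overlapped. With any one of nonDEN-L-WD replicates 1 and 4 or DEN-PT-WD replicates 3, 4, 5 and 8 left out, neither was called, and *Ccr1* was also lost without nonDEN-L-WD replicate 2 and *Cx3cr1* without DEN-PT-WD replicate 7, while without nonDEN-L-WD replicate 2 or DEN-PT-WD replicate 6 the list had 5 called members. Among 30 interferon-stimulated genes *Ifi44*, *Oas1a* and *Ifi27l2a* were higher, beside the same 2.36%, with log2 fold changes of 1.16, 1.07 and 1.04. Their ranges overlapped with the untreated ones, and 0 members were called without nonDEN-L-WD replicate 3, and 1 without its replicate 1, DEN-PT-WD replicate 3 or DEN-PT-WD replicate 8. *Ifi44* lost its call without nonDEN-L-WD replicate 1, 2 or 3, *Oas1a* without nonDEN-L-WD replicate 3 or DEN-PT-WD replicate 3 or 8, and *Ifi27l2a* without nonDEN-L-WD replicate 1, 3 or 4 or DEN-PT-WD replicate 2, 3, 7 or 8. *Oas1a* shares 57.6% of its 50-base words with other genes. None of 13 genes of MHC class II presentation was called by edgeR or DESeq2. However, 4 were higher by adjusted p alone, beside 7.5% of all genes, and 11 were at an unadjusted p under 0.05, beside 4630 of 15625. *H2-DMa*, which loads peptides onto class II molecules, had 81, 80.4, 76.3 and 54.3 against 96.1, 151 and 183 without overlap (log2 fold change 0.99 ± 0.20, adjusted p = 0.00437). It was called without nonDEN-L-WD replicate 1, at 1.04 (adjusted p = 0.0139), and the list had 1 called member without DEN-PT-WD replicate 1, 4 or 6 or nonDEN-L-WD replicate 1 or 2, and 2 without nonDEN-L-WD replicate 3. None of 16 resident Kupffer cell markers was called by edgeR or DESeq2, and 1 was called without DEN-PT-WD replicate 6. Of these markers 3 were higher by adjusted p alone, beside 7.5% of all genes, and 10 were at an unadjusted p under 0.05, beside 4630 of 15625. The lowest adjusted p was that of *Clec1b*, with 274, 324, 329.8 and 295 against 347, 521 and 728 (log2 fold change 0.78 ± 0.18, adjusted p = 0.00962).

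Few vessel and matrix genes were called. Of 25 endothelial markers 2 were higher, beside 2.36% of all genes, and none lower, with a median of 0.26. By adjusted p alone 8 were higher, beside 7.5% of all genes, and 15 were at an unadjusted p under 0.05, beside 4630 of 15625. *Esm1*, a proteoglycan of vessel tip cells, had 49.7, 46.4, 36.1 and 32 normalized counts against 110.0, 257 and 356 (log2 fold change 2.60 ± 0.29, adjusted p = 9.16e-05), the lowest adjusted p among the genes called higher. *Lyve1*, the hyaluronan receptor of sinusoidal and lymphatic endothelium, had 260.4, 298, 367 and 278 against 529, 646 and 741 (log2 fold change 1.09 ± 0.15, adjusted p = 0.000482). Neither overlapped. *Galnt15*, a glycosyltransferase that starts O-linked chains, had 110.2, 114, 127 and 129 against 152, 338 and 408 (log2 fold change 1.33 ± 0.19, adjusted p = 0.000657). Of 38 stellate cell and matrix genes, beside 2.36% of all genes called higher, only *Col5a2*, a chain of type V collagen, was called, with 138, 159.9, 138 and 71.4 against 134, 322 and 633 (log2 fold change 1.37 ± 0.29, adjusted p = 0.00575), against 4 members without nonDEN-L-WD replicate 2, while 18 were higher and 1 lower by adjusted p alone, beside 7.5% and 4.87% of all genes, and the median was 0.56. Among those under 2-fold, the collagen genes *Col1a1* and *Col3a1* and the intermediate filament gene *Vim*, chosen after their values were seen, had a log2 fold change of 0.86 ± 0.27 (adjusted p = 0.0371), a log2 fold change of 0.71 ± 0.21 (adjusted p = 0.0302) and a log2 fold change of 0.81 ± 0.18 (adjusted p = 0.00661).

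Of 20 bile duct and progenitor markers *Tspan8*, *Prom1*, *Krt23* and *Spp1* were higher, beside 2.36% of all genes, and none was lower, with a median of 0.43. *Tspan8*, a tetraspanin, had 91.7, 48.2, 44.3 and 111 normalized counts against 234, 939 and 3165 (log2 fold change 3.95 ± 0.73, adjusted p = 0.00242). *Prom1*, the progenitor antigen CD133, had 73.2, 39.7, 38.1 and 70.3 against 80, 148 and 422 (log2 fold change 1.85 ± 0.53, adjusted p = 0.0264), and *Krt23*, a keratin, had 56.6, 90.8, 72.1 and 37.3 against 32.9, 179 and 319.7 (log2 fold change 1.47 ± 0.48, adjusted p = 0.045). *Tspan8* and *Prom1* did not overlap and *Krt23* did. *Epcam*, the adhesion molecule that defines duct cells and was chosen after its values were seen, had 75.1, 28.4, 30.9 and 54.3 against 25, 45.3 and 111 (log2 fold change 0.25 ± 0.41, adjusted p = 0.734). With any one of the 4 untreated libraries left out, 2 members were called, *Prom1* and *Krt23* having been lost, and *Krt23* was also lost without any one of DEN-PT-WD replicates 1 to 5.

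Cell cycle genes had 6 of 52 members higher, beside 2.36% of all genes, and none lower, with a median of 0.73, and these calls rested on few libraries. By adjusted p alone 9 were higher and 2 lower, beside 7.5% and 4.87% of all genes. At an unadjusted p under 0.05 were 33, beside 4630 of 15625. *Mki67*, the proliferation antigen Ki-67, had 112, 157, 189.6 and 85.2 normalized counts against 117, 268 and 511 (log2 fold change 1.09 ± 0.35, adjusted p = 0.0444), and *Top2a*, the topoisomerase of dividing cells, had 74.1, 98.4, 141 and 60.7 against 76.4, 173 and 437 (log2 fold change 1.12 ± 0.33, adjusted p = 0.032). *Ccnb1* and *Ccnb2*, the B-type cyclins that drive mitosis, had log2 fold changes of 1.32 and 1.20. *Racgap1*, needed for cytokinesis, had 20.5, 21.8, 28.9 and 10.7 against 19.7, 50.5 and 113 (log2 fold change 1.33 ± 0.37, adjusted p = 0.0242), and *Cdc25c*, a phosphatase that starts mitosis, had 1.69, 4.2 and 13.4 in peritumoral liver and was at the floor in untreated liver, which is at least 1.74-fold higher. All of these but *Cdc25c* overlapped between the groups, and DEN-PT-WD replicate 8 was highest for all 6. Without nonDEN-L-WD replicate 1 or 4 none was called, without DEN-PT-WD replicate 8 the list had 1 called member, without its replicate 3 it had 3, and without its replicate 6, the lowest for 5 of the 6, it had 15. A fit of the 12 libraries alone also called 0. By gene, *Cdc25c* was lost without any one of the 4 untreated libraries, *Ccnb2*, *Top2a* and *Mki67* also without nonDEN-L-WD replicate 2, *Ccnb1*, *Top2a* and *Mki67* without DEN-PT-WD replicate 3, *Ccnb1* and *Mki67* without its replicate 4 and *Mki67* without its replicate 5.

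Targets of p53 had 4 of 33 members higher, beside 2.36% of all genes, and none lower, with a median of 0.28. *Psrc1*, a spindle protein, had 1.95, 3.78, 9.28 and 6.39 normalized counts against 9.28, 31.5 and 134 (log2 fold change 3.16 ± 0.84, adjusted p = 0.0179). *Tnfrsf10b*, the death receptor of TRAIL, had 17.6, 14.2, 9.28 and 6.39 against 19.7, 33.6 and 79.7 (log2 fold change 1.81 ± 0.41, adjusted p = 0.00839). *Phlda3*, an inhibitor of AKT, had 30.2, 39.7, 29.9 and 13.8 against 50.2, 64 and 99.8 (log2 fold change 1.26 ± 0.33, adjusted p = 0.0158), and *Pmaip1*, the BH3-only protein Noxa, had 44.9, 40.7, 36.1 and 32 against 47.3, 79.9 and 101 (log2 fold change 1.05 ± 0.21, adjusted p = 0.00376). None of the 4 overlapped, but for *Psrc1* the highest untreated and the lowest peritumoral value were both 9.28 after rounding. DEN-PT-WD replicate 4 was highest for each of the 4. Only *Tnfrsf10b* was called without nonDEN-L-WD replicate 4, and *Psrc1* was also lost without its replicate 1.

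Few stress genes were called. Among 29 genes of the unfolded protein and integrated stress responses, *Psat1* and *Asns*, enzymes of serine and asparagine synthesis, and *Trib3*, a pseudokinase, were higher, beside 2.36% of all genes, and none was lower. Their log2 fold changes were 2.09, 1.63 and 1.10, and the list median was -0.02. By adjusted p alone 3 were higher and 4 lower, beside 7.5% and 4.87% of all genes. Without nonDEN-L-WD replicate 1 or 4 or DEN-PT-WD replicate 3 or 4 the list had 0 called members, and it had 1 without nonDEN-L-WD replicate 3 or DEN-PT-WD replicate 8. *Asns* and *Trib3* also lost their calls without nonDEN-L-WD replicate 2, *Asns* without DEN-PT-WD replicate 7, and *Trib3* without its replicates 2 or 5. Of 28 acute phase genes *Il1rn*, *Lcn2* and *Mt2* were higher and none was lower, with a median of 0.38, against that same 2.36%, which holds too for the immediate early and NRF2 lists below. *Mt2*, a metallothionein that binds zinc, had 235, 55.8, 189.6 and 315 normalized counts in untreated liver and 503, 1083, 617, 265, 335, 256, 5759 and 2786 in DEN-PT-WD replicates 1 to 8 (log2 fold change 2.87 ± 0.95, adjusted p = 0.0495). Replicates 7 and 8 were far above the rest, and without replicate 7 the log2 fold change was 2.08. Its call was lost without any one untreated library or any one of DEN-PT-WD replicates 2, 3, 7 and 8, and the list had 1 called member without any one untreated library or DEN-PT-WD replicate 3 or 8. *Egr1*, an immediate early transcription factor and 1 of 21 on its list, had 261, 295, 373 and 167 against 277, 642 and 1324 (log2 fold change 1.31 ± 0.42, adjusted p = 0.0444), and lost its call without any one untreated library or any one of DEN-PT-WD replicates 2, 3, 4, 5 and 8. *Gstp2*, a glutathione transferase and 1 of 29 NRF2 targets, had 52.7, 77.6, 43.3 and 46.9 against 131, 232 and 880.2 (log2 fold change 2.52 ± 0.71, adjusted p = 0.0242), shares 54.3% of its 50-base words with other genes, and lost its call without nonDEN-L-WD replicate 1, 3 or 4. The fit of the 12 libraries alone called 5 NRF2 targets and DESeq2 called 2.

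Metabolic lists held few called genes, beside 2.36% of all genes called higher and 0.41% lower. In lipogenesis and desaturation 1 of 24 was higher, *Scd2*, a stearoyl-CoA desaturase of fetal liver and brain, with 327, 330.1, 298 and 209 normalized counts against 638, 1615 and 3495 (log2 fold change 2.71 ± 0.48, adjusted p = 0.00177), and 1 was lower, *Elovl3*. In cholesterol synthesis 1 of 25 was higher and none lower, *Sqle*, the squalene epoxidase, with 204, 83.2, 129.9 and 211 against 201, 579 and 1282 (log2 fold change 2.05 ± 0.53, adjusted p = 0.0156) and the lowest peritumoral library inside the untreated range. In bile acid synthesis and transport edgeR called 1 of 28 higher and none lower. By adjusted p alone 7 were lower, beside 4.87% of all genes, and 1 was called lower by DESeq2 and without DEN-PT-WD replicate 8. The higher one was *Abcb1a*, a multidrug exporter, with 140.4, 222, 214 and 74.6 against 251, 407 and 528 (log2 fold change 1.27 ± 0.25, adjusted p = 0.00345) and no overlap. These 3 calls and that of *Elovl3* were kept whichever of the 12 libraries was left out. Without the pancreas-rich libraries *Abcb1a* lost its call, at 0.92 (adjusted p = 0.109), while *Scd2*, *Sqle* and *Elovl3* kept theirs. None of 33 PPAR alpha targets was called by edgeR or DESeq2, with 14 at an unadjusted p under 0.05, but 9 were lower by adjusted p alone, beside 4.87% of all genes, and 1 higher, *Ucp2*, a mitochondrial carrier, with 579, 668, 713 and 519 against 721, 1059 and 1369.5 (log2 fold change 0.78 ± 0.14, adjusted p = 0.00214). Their list median was -0.27. None of 34 genes of lipid droplets was called by edgeR or DESeq2, 12 were at an unadjusted p under 0.05 and 1 was called higher without nonDEN-L-WD replicate 1, with *Cideb*, which loads fat onto VLDL, at 4542, 4605, 5299 and 4942 against 3091, 3400.0 and 4530.1 (log2 fold change -0.45 ± 0.09, adjusted p = 0.00413).

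No gene of zonation or hepatocyte identity was called. Of 26 pericentral genes neither edgeR nor DESeq2 called any, 6 were lower by adjusted p alone, beside 4.87% of all genes, 12 were at an unadjusted p under 0.05, and the median was -0.35. *Oat*, the ornithine aminotransferase of pericentral hepatocytes, had 31073, 25771, 42668 and 35119 normalized counts against 12979, 17559 and 23741 without overlap (log2 fold change -0.93 ± 0.16, adjusted p = 0.00171). It passed 2-fold without the libraries rich in pancreas markers, at -1.15 (adjusted p = 0.0242). The list had 1 member called lower without DEN-PT-WD replicate 6 or nonDEN-L-WD replicate 2 or 4, and 2 without the pancreas-rich libraries. None of 28 periportal genes was called by either tool, and 9 were at an unadjusted p under 0.05, beside 4630 of all 15625 genes. *Nags*, which makes the activator of the urea cycle, had 826, 795, 847 and 839 against 597, 677 and 783 (log2 fold change -0.30 ± 0.10, adjusted p = 0.0454). Of 29 hepatocyte identity genes none was called by either tool, 3 were lower by adjusted p alone, against the same 4.87%, 8 were at an unadjusted p under 0.05, and *Cebpb*, a transcription factor of hepatocytes, had 1168, 955, 1272 and 1182 against 565, 802 and 1046 (log2 fold change -0.50 ± 0.13, adjusted p = 0.0181). Of 20 clock genes none was called by either tool and 3 were at an unadjusted p under 0.05, with *Clock* itself at 1592, 1382, 1502 and 2061 against 1098, 1277 and 1410.5 (log2 fold change -0.35 ± 0.09, adjusted p = 0.0192). None of 9 red blood cell markers was called by edgeR, 3 were at an unadjusted p under 0.05, and 1 was called higher by DESeq2, 1 without DEN-PT-WD replicate 1 and 2 without its replicate 6, with a list median of 0.49 and a summed level of 1597 to 1865 TPM in untreated and 1547 to 3624 TPM in peritumoral liver. Against that direction, *Alas2*, the haem synthesis enzyme of red cells, had 2434, 2807, 2699 and 2459 against 1464, 1831 and 2066 without overlap (log2 fold change -0.50 ± 0.12, adjusted p = 0.00928).

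Among the decreases outside the *Mup* family, *Hypk*, a chaperone that binds huntingtin, had 252, 242, 237 and 303 normalized counts against 77.6, 89.8 and 119 (log2 fold change -1.43 ± 0.17, adjusted p = 0.000122), and *Susd4*, a complement inhibitor, had 457, 362, 352 and 531 against 80.5, 142 and 249 (log2 fold change -1.41 ± 0.26, adjusted p = 0.0024). Both kept their calls whichever library was left out, and 32.8% of the 50-base words of *Hypk* occur in other genes. Without the pancreas-rich libraries *Hypk* kept its call and *Susd4* lost it, at -1.07 (adjusted p = 0.134). *Gm10222*, a copy of mitochondrial sequence, had 5613, 2729, 6205 and 10286 against 0, 0 and 3.08 (log2 fold change -12.34 ± 1.43, adjusted p = 9.16e-05), but every one of its 50-base words also occurs in *mt-Nd4l*, a subunit of complex I. The sum of these genes ran from 35510 to 44640 in untreated and from 23670 to 38750 in peritumoral liver and overlapped. Its lower count and the division of reads between the copies cannot be told apart.

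Part of the lower genes followed the kidney transcripts of 1 untreated library. Of 10 tested kidney markers 8 were lower in peritumoral liver, beside 0.41% of all genes, with a list median of -3.63, and without nonDEN-L-WD replicate 1 none was lower and 2 were higher. DESeq2's Wald test called 2 of them lower. *Lrp2*, the endocytic receptor megalin, had 3329, 94.6, 54.6 and 102 normalized counts in untreated and 17.2, 55.4 and 136 in peritumoral liver (log2 fold change -3.93 ± 0.73, adjusted p = 0.0024). *Egf* had 1137, 16.1, 21.6 and 16 against 9.43, 17.8 and 36.8 (log2 fold change -4.01 ± 0.75, adjusted p = 0.00263), and *Ldhb*, a lactate dehydrogenase and 1 of 38 glycolysis genes, had 647, 64.3, 95.8 and 63.9 against 58.4, 77.5 and 96.1 (log2 fold change -1.47 ± 0.42, adjusted p = 0.0271). In each of these 3 the remaining untreated libraries lay within the peritumoral range, and without replicate 1 the log2 fold change was -0.52 for *Lrp2* (adjusted p = 0.483), 0.047 for *Egf* and 0.072 for *Ldhb*. All 29 genes called lower without replicate 1 were among the 64, of which 12 had the opposite sign without it and 7 were no longer tested.

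The same DEN difference was set beside that on the control diet. The difference of the differences, that is DEN-PT-WD over nonDEN-L-WD against DEN-L-CD over nonDEN-L-CD, passed for 430 genes (2.75%), with 245 higher (1.57%) and 185 lower (1.18%). It spans diet and the kind of piece together, since the DEN-L-CD pieces are labelled liver and the DEN-PT-WD pieces peritumoral, and small tumors in or beside DEN-L-CD pieces are possible, since the study did not separate tumors from liver on CD. *Afp* did not pass (log2 difference 1.36 ± 1.29, adjusted p = 0.556), and had 10.5, 14.9 and 17.2 normalized counts in nonDEN-L-CD and 142, 57.8, 89.8 and 453 in DEN-L-CD. *Cyp2a4* had 1.17, 2.3 and 2.29 and 1467, 1351, 2943 and 8562 in these groups, with a difference of differences of log2 difference -4.03 ± 2.04, adjusted p = 0.23. *Lyve1* passed (log2 difference 1.52 ± 0.24, adjusted p = 0.000562), with 367, 452 and 646 in nonDEN-L-CD and 416, 411, 252 and 367 in DEN-L-CD, which overlap. *Mup18* also passed (log2 difference -2.41 ± 0.57, adjusted p = 0.0117), with 5406, 2621 and 2738 and 4029, 2696, 4516 and 5491. *Il1rn* passed as well (log2 difference 2.08 ± 0.61, adjusted p = 0.0364), with 185, 119.6 and 270.4 and 167, 159, 91 and 275, where the ranges overlap. Without nonDEN-L-CD replicate 2 the count was 232, and without its replicate 3 it was 258.

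The 8 peritumoral libraries were not evenly spread over the called genes. Of the 368 genes called higher, DEN-PT-WD replicate 3 was the highest peritumoral library for 111, replicate 4 for 93 and replicate 8 for 78, and replicate 6 was the lowest for 201. Of the 19 oncofetal genes, replicate 3 was highest for 9 and replicate 4 for 6, and replicate 6 was lowest for 11. Among the 11 female-biased genes replicate 2 was highest for 5 and replicate 3 for 4, and among the 9 macrophage genes replicate 6 was lowest for 8. Of the 14 called *Mup* genes and pseudogenes, replicate 5 was lowest for 7. Genes called on these libraries share their samples, and these counts describe them only.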

How the data were processed

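RNA was sequenced from 25 mouse liver and tumor samples, of which the 8 DEN-PT-WD and 4 nonDEN-L-WD libraries were compared, grouped by their titles. The authors made libraries with an mRNA kit, read them from a single end and processed them with FastQC, STAR and RSEM on GRCm38 per the submitters' processing notes. The versions of STAR and RSEM and the use of strand in counting are not given in the sources used here. The deposited expected counts are RSEM's unnormalized estimates per gene, and need not be whole since RSEM divides a read among the genes it matches. The deposited TPM values are length-corrected shares, used here only for sums over marker lists. The deposited FPKM values were not used.

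After rounding to integers, expected counts were tested in R 4.3.3 with edgeR 4.0.16 (glmQLFit and glmQLFTest, TMM, filterByExpr on the groups, minimum count 10), in 1 fit of all 25 samples in 5 groups. A standard error is the size of the log2 fold change divided by the square root of the F statistic. P-values were adjusted by Benjamini-Hochberg over the 15625 genes kept of 48795. A gene was called at an adjusted p up to 0.05 and a log2 fold change of 1 or more in size. These are the thresholds in the study's methods, which name DESeq2 with shrinkage of log fold changes by apeglm. No such shrinkage was applied here, so the same cutoff meets a different estimate. DESeq2 1.42.0 and other settings were run as alternatives. On simulated data of 15329 genes for this comparison, the procedure recovered 38% of 50 genes changed 2-fold, the minimum fold of a call. It recovered 100% of those changed 3-fold, 4-fold or 8-fold, 50 for each fold, and called 2 other genes. Recovery at low counts was not tested separately. Depth limits genes with few counts. The floor was 3 counts per library, and folds over a group that never exceeded it are minimum values that cover counting error only. Exact permutation tests, sums and figures used Python 3.11.15 with pandas 2.3.3, SciPy 1.17.1 and matplotlib 3.10.9.

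The text names, of the called genes, the 12 largest increases and 10 largest decreases with no overlap and a higher-group mean of 100 normalized counts or more, the 5 lowest adjusted p in each direction, the called members of 37 gene lists (up to 6 with values), and of a list without calls the member of lowest adjusted p where that is at most 0.05. Members and lists were chosen with earlier results of these data known. Named genes outside the rule, namely the kidney list and the genes of imprinting, the *Mup* family, mitochondria and others so marked, were chosen after their values were seen. The values of 1 called list member are not reported here. Results of lists not described above are as follows. None of 12 adipose and none of 17 muscle and mesothelium markers was called by edgeR or DESeq2 (3 and 0 at an unadjusted p under 0.05), with medians of -1.00 and -0.30. Coordinates are those of GRCm38, promoter windows are those of RefSeq on GRCm38.p6 (32851 windows of 27025 genes), and shared sequence is the percent of a gene's words of 50 bases that occur in other genes' transcripts. Replicate pairs of each group differed by more than sampling noise, and none was counted as 1 sample.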

Additional observations from a re-analysis of the deposited data

Results flagged for a closer look

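A gap test on 70 groups of values picked out 4 values, in 3 libraries, that stood apart from the rest of their group, where chance picks about 1 group in 20. The summed level of pancreas markers was 12971 TPM in DEN-PT-WD replicate 1, above the other 7 peritumoral libraries, and that of kidney markers was 1807 TPM in nonDEN-L-WD replicate 1. DEN-PT-WD replicate 7 had the lowest *Cyp2b13*, at 4.22 normalized counts, and the lowest *Cyp2b9*, at 115.6.

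For 16 named genes the DEN difference on WD differed from that on CD by the edgeR quasi-likelihood test of the difference of differences, at an adjusted p of at most 0.05 with at least a 2-fold size, the test that 2.75% of all genes passed. Diet and the kind of piece, liver or peritumoral by the labels, change together in this test and cannot be told apart. Values below are log2 of the WD difference over the CD difference. *Cyp2c69* had 6.54 and *Cyp2c40* had 5.32. In DEN-L-CD, *Cyp2c40* had 149.5, 45.8, 144 and 100.1 normalized counts, and in nonDEN-L-CD it had 276, 286 and 257, so that the control diet groups lay in the opposite order to the WD groups. *Mt2* had 8.49, with 1004, 19673 and 19946 normalized counts in nonDEN-L-CD and 659.7, 122, 104 and 208 in DEN-L-CD, the first group spanning a wide range. *Lcn2* had 4.88, with 192, 4066 and 6028 and 569.5, 139, 110.5 and 1701 in the same groups. *Lepr*, the leptin receptor, had 3.87, with 608, 1041 and 1587 and 374, 307, 294 and 253. In each of these 3 genes nonDEN-L-CD replicate 1 was the lowest of its group.

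Of the others, *Asns* had 2.99, *Il1rn* 2.08, *Clca3a1* 1.94, *Lyve1* 1.52, *Galnt15* 1.47 and *Plac8* 1.06. Lower on WD were *Gm10222* at -10.58, *Mup18* at -2.41, *Gm13773* at -2.31, *Cyp8b1*, the sterol hydroxylase of cholic acid synthesis, at -1.17 and *Oat* at -1.11. *Gm10222* had 243, 0, 7291 and 3.66 normalized counts in DEN-L-CD, so that reads of this mitochondrial copy were nearly absent in some libraries and plentiful in others of that group.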

How the results depend on the processing

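The count of called genes was 520 with DESeq2's Wald test, 435 with DESeq2's size factors, 425 without the filter on low counts, 367 in a fit of the 12 libraries alone and 432 as reported. Without a minimum fold change the counts were 1933 in all (1172 higher and 761 lower), 1311 for the difference of differences, 5884 for tumor against peritumoral liver and 3327 for DEN-L-CD against nonDEN-L-CD, against 1235 and 734 for the last pair with it. Without the low-count filter 127 genes were called lower. When single replicates were left out, the count ran from 201 (without nonDEN-L-WD replicate 4) to 604 (without DEN-PT-WD replicate 6), the higher from 159 to 513 and the lower from 29 to 91. The difference of differences then ran from 232 to 600, the tumor comparison from 1114 to 1316 and the control diet comparison from 430 to 842, lowest without nonDEN-L-CD replicate 2. The mean difference in total expected count ran from -3787090 to -1664780, that in the percent of counts in the top 10 genes from -1.71 to -0.70, and that in implied read length from -0.24 to -0.19 bases. Leaving out DEN-PT-WD replicate 8 brought the exact permutation p of the depth difference to 0.0364.

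An alternative chosen after seeing the data left out the 10 libraries of the series with over 1000 TPM of pancreas markers. It left 4 peritumoral and 2 untreated libraries and called 171 genes, 162 higher and 9 lower, with the smaller number of samples part of its construction. *Mep1a*, *Egf*, *Gpx3* and *Ldhb*, all lower as reported, changed sign without nonDEN-L-WD replicate 1, and over the single left-out libraries their log2 fold changes ran from -5.69 to 6.23, -4.40 to 0.047, -3.33 to 1.13 and -1.78 to 0.072, and in the fit without pancreas-rich libraries *Mep1a* was at 6.79 and *Gpx3* at 0.86. *Cyp2a5*, which was not called at 0.40, was at -0.17 there. Of the 133 named genes, of which 114 were called, the number that kept the direction and lost the call was 5 with DESeq2, 18 in the fit of the 12 libraries alone, 28 with the replicate block, 42 without nonDEN-L-WD replicate 1, 51 without its replicate 4 and 74 without the pancreas-rich libraries.

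The replicate numbers are shared between the groups, but same-numbered libraries did not deviate together (r of 0.14, -0.15, 0.10 and -0.13 for numbers 1 to 4), so no pairing was assumed. With the number as a replicate block, 334 genes were called, no NRF2 target and 1 bile acid gene lower among them, and *Oat* was called lower at -1.04 (adjusted p = 0.00523). Not every library correlated best with its own number.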

Other observations

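Imprinted genes and some genes of myeloid cells and vessels were read outside the comparisons above, and all genes named here were chosen after their values were seen. Of 24 tested imprinted genes 5 were higher in peritumoral liver and none lower, *H19*, *Meg3*, *Rian*, *Mest* and *Plagl1*, beside 2.36% of all genes, with a median of 0.33. *Rian*, a noncoding RNA of the *Dlk1*-*Meg3* domain, had 17.6, 11.4, 14.4 and 13.8 normalized counts in untreated and 37.9, 83.2 and 319 in peritumoral liver, with no overlap (log2 fold change 2.95 ± 0.61, adjusted p = 0.00469). *Dlk1* itself, a fetal ligand of the Notch family, was at the floor in untreated liver and had 1.05, 4.15 and 12.7 in peritumoral liver, and was not called (adjusted p = 0.138). *Lepr*, the leptin receptor, had 187, 192, 194 and 141 against 275, 628 and 1574 (log2 fold change 2.06 ± 0.52, adjusted p = 0.0135), and its call was lost without nonDEN-L-WD replicate 4. *Cpe*, a carboxypeptidase that processes prohormones, had 77.1, 32.2, 35 and 29.8 against 77.6, 353 and 966 (log2 fold change 3.13 ± 0.71, adjusted p = 0.0081). *Csn3*, the milk protein kappa-casein, had 0 in all 4 untreated libraries and 0, 48.4 and 339.6 in peritumoral liver, at least 30-fold higher over the group mean, and its call was lost without any one untreated library or DEN-PT-WD replicate 3 or 4. Its fitted log2 fold change moved from 9.50 to 8.80 without DEN-PT-WD replicate 3.

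Several genes that were higher in peritumoral liver had tumor values close to the peritumoral ones. *Clca3a1*, a secreted protein of the chloride channel regulator family, had 148, 195, 184 and 178 normalized counts in untreated and 185, 557 and 1027 in peritumoral liver (log2 fold change 1.78 ± 0.33, adjusted p = 0.00229), and tumors averaged 679 ± 192 (SD, n = 6), a tumor over peritumoral log2 difference of 0.17 ± 0.26 (adjusted p = 0.651). *Tmsb4x*, the actin-binding thymosin beta 4, had 1781, 2502, 2138 and 1824 against 3139, 4564 and 6114 (log2 fold change 1.16 ± 0.20, adjusted p = 0.00165) and 4675 ± 1051 in tumors, a difference of 0.02 ± 0.17 (adjusted p = 0.941). *Csf2rb2*, a receptor chain of interleukin-3, had 64.4, 58.6, 71.1 and 47.9 against 81.1, 151 and 231 (log2 fold change 1.40 ± 0.24, adjusted p = 0.00137), with a tumor difference of 0.17 ± 0.19 (adjusted p = 0.521). *Plac8*, a gene of myeloid and lymphoid cells, had 164, 182, 198 and 178 against 237, 363 and 491 (log2 fold change 1.05 ± 0.21, adjusted p = 0.00367), with a tumor difference of 0.15 ± 0.17 (adjusted p = 0.546). A p that misses the threshold does not show that the tissues have the same level. The call of *Plac8* was lost without DEN-PT-WD replicate 3 or 8, while those of *Clca3a1*, *Tmsb4x* and *Csf2rb2* were kept whichever of the 12 libraries was left out.

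*Gm28437*, a copy of mitochondrial sequence whose 50-base words all occur in *mt-Co3*, a subunit of cytochrome c oxidase, had 23769, 9577, 7239 and 1534 normalized counts in untreated and 32325, 87716 and 133910 in peritumoral liver (log2 fold change 2.99 ± 0.70, adjusted p = 0.00962), and was at 3.78 without nonDEN-L-WD replicate 1. *mt-Co3* had 315110, 288940, 359120 and 390400 against 126550, 190480 and 290520 (log2 fold change -0.83 ± 0.17, adjusted p = 0.00482). Their sum ran from 298500 to 391900 in untreated and from 232900 to 322800 in peritumoral liver, and the ranges overlapped. Of 620 tested pseudogenes 26 were higher and 9 lower, beside 2.36% and 0.41% of all genes.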
